A study of Danio rerio with 12 samples.

Results

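The ponzr (plac8 onzin related) genes of zebrafish were examined in RNA sequencing of whole larvae at 3 days after fertilization. Members were the rows of the deposited expression table whose gene name starts with ponzr or whose description names a plac8 onzin related protein. This rule found 7 of 35004 genes, namely ponzr1, ponzr2, ponzr3, ponzr4, ponzr5, ponzr6 and ponzr10. The family was singled out because ponzr3 and ponzr4 were among the largest hypoxia rises in these libraries, so the members were chosen by their measured hypoxia against normoxia difference in FPKM. The hypoxia values of the family are therefore a description and carry no test.

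The Ponzr proteins belong to the PLAC8 family of small cysteine-rich proteins, named after mouse Plac8, also called onzin, which is expressed in placenta and in immune cells. The family is expanded in fish. In zebrafish, ponzr1 is known for its part in the development of the pronephros (the larval kidney) and of the pharyngeal arches, where it acts in a pathway with the transcription factor pax2a. Roles of the other members are not stated here.

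There were 4 groups of 3 libraries: wild-type larvae in normoxia, gcn2 knockout larvae in normoxia, wild-type larvae in hypoxia, and gcn2 knockout larvae in hypoxia. The exposure lasted 8 hours, and all larvae had been raised in embryo medium. The labels call the libraries biological replicates. The sources used here do not give the knockout allele, the oxygen level or the number of larvae in a library. The product of eif2ak4, Gcn2, senses uncharged tRNA and slows translation by phosphorylating eIF2.

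The transcript of eif2ak4 (named EIF2AK4 in the table) was lower in every knockout library than in every wild-type library, with means of 3.79 FPKM in wild type against 1.74 FPKM under normoxia, and 4.22 against 1.67 FPKM under hypoxia. Libraries held 15668848 to 16841145 reads assigned to genes, and 27371 to 27656 genes were above 0. The mitochondrial share of reads in wild type was 3.48% to 3.67% with normal oxygen and 3.00% to 3.08% after hypoxia, and in the knockout these shares were 3.97% to 4.18% and 3.65% to 3.75%. Its part in the results below was not tested.

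FPKM, a fragment count divided by gene length and by a measure of library size, is per length and can be set side by side between genes. Levels below are FPKM as mean ± SD with n = 3. Differences are of log2(FPKM + 1), a transform that makes changes of low genes look smaller. Of the 7 members, 6 reached 1 FPKM in at least 3 of the 12 libraries, the level required for a test, and ponzr10 did not.

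Hypoxia was accompanied by much higher levels of ponzr3 and ponzr4 in both genotypes, while the other members stayed within 0.6 of normoxia on the log2(FPKM + 1) scale. Over alternatives to this processing, ponzr6 reached 0.68 in the knockout, and ponzr1 reached -0.61 in the knockout and -0.605 in wild type. The transcript of ponzr3 (ENSDARG00000088589, chromosome 7, 22675475 to 22677211, GRCz11, plus strand) measured 5.11, 9.70 and 7.33 FPKM in the wild-type normoxia libraries. In wild-type hypoxia it measured 101, 85.1 and 92.5 FPKM. Knockout larvae had 8.11, 7.13 and 7.56 FPKM without hypoxia and 167, 151 and 125 FPKM with it. Every hypoxia library was above every normoxia library of the same genotype, and all 3 knockout hypoxia libraries were above all 3 wild-type hypoxia libraries. The group means were 7.38 ± 2.3 and 92.9 ± 8.09 FPKM in wild type, a ratio of 12.6, and 7.60 ± 0.491 and 148 ± 21.4 FPKM in the knockout, a ratio of 19.4. These values rested on 76 to 2274 reads per library.

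The transcript of ponzr4 (ENSDARG00000087440, chromosome 7, 22680560 to 22684292, GRCz11, plus strand) lies next to ponzr3 and showed the same order of groups in hypoxia from a lower level. It measured 1.84, 2.02 and 2.03 FPKM in wild-type normoxia and 38.0, 36.8 and 33.2 FPKM in wild-type hypoxia. Knockout larvae had 1.51, 1.28 and 1.52 FPKM without hypoxia and 47.7, 42.2 and 41.3 FPKM with it. The knockout libraries were therefore the lowest of all in normoxia and the highest of all in hypoxia, with no overlap between genotypes in either condition. The normoxia values rested on 35 to 38 reads per library in wild type and 25 to 29 in the knockout. How many of all genes tested separate between genotypes was not counted, so nothing is read from it for ponzr4 or the other genes. The means were 1.96 ± 0.109 and 36.0 ± 2.47 FPKM in wild type, a ratio of 18.4, and 1.43 ± 0.135 and 43.7 ± 3.44 FPKM in the knockout, a ratio of 30.5. Reads per library ran from 25 to 832.

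Ordered by the hypoxia difference over 21480 genes tested, ponzr4 was at rank 2 in wild type (3.64) and rank 1 in the knockout (4.20), and ponzr3 was at rank 3 in both (3.52 and 4.10). The neighbours in that order were hbae5, an embryonic globin (3.72 in wild type), the HIF target ankrd37 (3.52 in wild type and 4.00 in the knockout), egln3, one of the prolyl hydroxylases that mark HIF for destruction (3.49 and 3.71), and rhcga, an ammonia transporter of skin ionocytes (3.44 and 4.13). With a pseudocount of 0.1 in place of 1, the ponzr4 difference was 4.13 in wild type and 4.84 in the knockout.

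**Figure D1:**
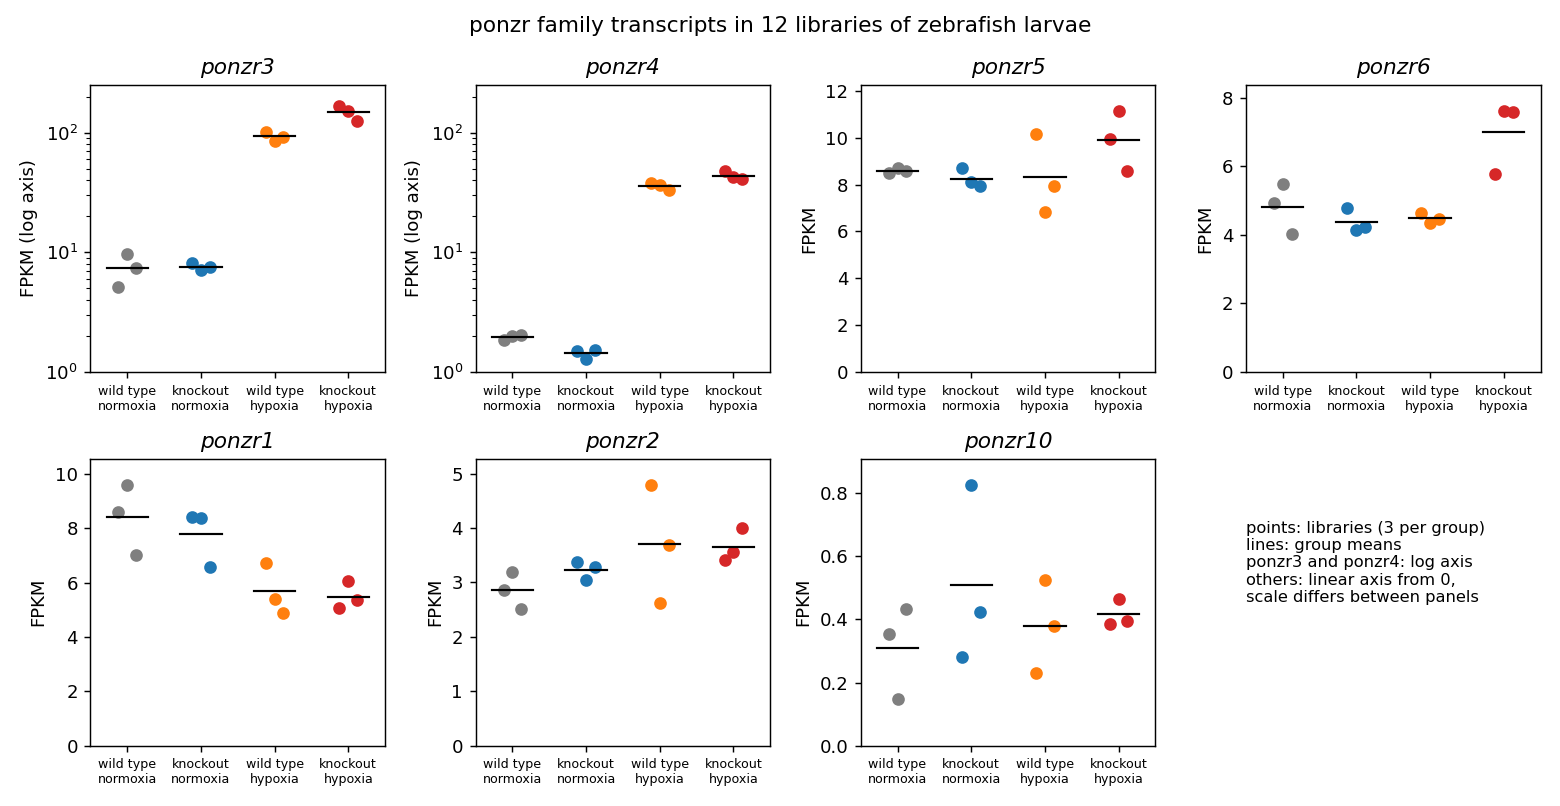
FPKM of each of the 7 ponzr genes (y axis, log axis for ponzr3 and ponzr4, linear axis from 0 for the rest) in the 4 groups, with a point for each library and a line at the group mean. The ponzr3 and ponzr4 points of both hypoxia groups lie far above normoxia, the ponzr6 points are highest in knockout hypoxia, and ponzr1 is lower in hypoxia in both genotypes.

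The transcript of ponzr6 (ENSDARG00000036382, chromosome 7, 22767678 to 22773132, GRCz11, plus strand) was higher with hypoxia in the knockout but overlapped normoxia in wild type. It measured 4.92, 5.49 and 4.03 FPKM in wild-type normoxia and 4.64, 4.34 and 4.46 FPKM in wild-type hypoxia. The knockout values were 4.79, 4.13 and 4.23 FPKM under normoxia and 5.78, 7.61 and 7.59 FPKM under hypoxia. Each knockout hypoxia library was above each of the other 9 libraries. The hypoxia difference was -0.08 in wild type and 0.56 in the knockout.

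The transcript of ponzr1 (ENSDARG00000090444, chromosome 7, 20344032 to 20369869, GRCz11, plus strand) was lower in hypoxia. It measured 8.59, 9.60 and 7.03 FPKM in wild-type normoxia and 6.73, 5.41 and 4.90 FPKM in wild-type hypoxia. The knockout values were 8.43, 8.37 and 6.58 FPKM under normoxia and 5.05, 6.06 and 5.36 FPKM under hypoxia. Within each genotype every hypoxia library was below every normoxia library, and the difference was -0.49 in wild type and -0.43 in the knockout. The gene zgc:194312 covers ponzr1 on the opposite strand at 1.70 to 3.12 FPKM. The strand setting of the counting is not given in the sources used here, and overlap of their exons was not examined. Whether reads of these genes were mixed is therefore not known.

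The transcript of ponzr5 (ENSDARG00000055046, chromosome 7, 22657566 to 22663971, GRCz11, plus strand) had overlapping groups in both genotypes. It measured 8.52, 8.73 and 8.57 FPKM in wild-type normoxia, 10.17, 6.85 and 7.93 FPKM in wild-type hypoxia, 8.69, 8.11 and 7.95 FPKM in knockout normoxia and 9.97, 11.1 and 8.60 FPKM in knockout hypoxia. It is the member for which the deposited table lists no PLAC8 protein domain. In normoxia it was nearly level with ponzr3 and ponzr1, which did not separate from it beyond the spread in wild type.

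The remaining members lie on chromosome 10 on the minus strand. The transcript of ponzr2 (ENSDARG00000088539, 22123831 to 22127942, GRCz11) measured 2.85, 3.19 and 2.52 FPKM in wild-type normoxia, 4.79, 2.61 and 3.69 FPKM in wild-type hypoxia, 3.37, 3.05 and 3.28 FPKM in knockout normoxia and 3.42, 3.56 and 3.99 FPKM in knockout hypoxia. The hypoxia libraries overlapped normoxia in wild type (0.26) and were all higher in the knockout (0.14). The transcript of ponzr10 (ENSDARG00000087764, 22088465 to 22095505, GRCz11) ran from 0.147 to 0.825 FPKM over the 12 libraries, or 2 to 12 reads, with overlap in every comparison. Differences in ponzr10 were not detectable at this depth.

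Counted over the family, hypoxia libraries were all above normoxia for 2 of 7 members in wild type and 4 of 7 in the knockout. The same held for 22.4% and 27.3% of the 21480 genes tested. Hypoxia libraries were all below normoxia for 1 member, ponzr1, in each genotype, and for 23.8% and 28% of the genes tested. The contrast chose the members, and nothing is read from these counts.

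The composition of the family's RNA differed between normoxia and hypoxia. This follows from the ponzr3 and ponzr4 rises that chose the family and is a description, not a further result. Summed over 7 members, the level was 34.3 ± 3.94 FPKM in wild-type normoxia and 33.2 ± 1.83 FPKM in knockout normoxia. In hypoxia the sum was 151 ± 12.7 FPKM in wild type and 218 ± 24.0 FPKM in the knockout. The share of the sum held by ponzr3 was 21.3% and 22.9% in normoxia and 61.3% and 67.6% in hypoxia, wild type first. The share held by ponzr4 was 5.75% and 4.32% in normoxia and 23.8% and 20.2% in hypoxia. The other 5 members together held 25.0 ± 2.3, 24.2 ± 1.57, 22.5 ± 3.56 and 26.5 ± 2.16 FPKM in wild-type normoxia, knockout normoxia, wild-type hypoxia and knockout hypoxia, values that overlapped. The level of ponzr3 was 3.73 ± 1.02 times that of ponzr4 in wild-type normoxia and 2.59 ± 0.246 times in wild-type hypoxia, and 5.32 ± 0.302 and 3.37 ± 0.309 times in the knockout. The wild-type ratios overlapped narrowly, with a lowest value of 2.7807 in normoxia and a highest of 2.7815 in hypoxia. The knockout ratios did not overlap. How reads that match several genes were counted is not given in the sources used here, which bears on the split of reads between such neighbouring relatives.

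The genotype comparisons did not choose the members and were tested with limma over all 21480 genes, with Benjamini-Hochberg adjustment and a threshold of 0.05. They use the same libraries as the hypoxia rises that chose the members. These comparisons are therefore not fully separate from that choice. In normoxia, 1 of the 6 members tested was called, and it was lower in the knockout, against 16.7% of all genes tested called in either direction, 7.63% higher and 9.11% lower. The called member was ponzr4, with a log2 difference of -0.28 ± 0.07 (SE, limma adjusted p = 0.0205). The adjusted p rose past the threshold when wild-type normoxia replicate 2 (0.0547) or 3 (0.0743) or knockout normoxia replicate 2 (0.082) was left out, with the 2 compared groups alone in the fit (0.0547) and with limma's voom on recovered reads (0.237). The ponzr3 difference in normoxia was 0.07 ± 0.16 (95% interval -0.28 to 0.42, limma adjusted p = 0.794).

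In hypoxia, 3 of the 6 members were called and all were higher in the knockout, against 33.1% of all genes tested called in either direction and 17% called higher. The members called were ponzr3 (0.66 ± 0.16, limma adjusted p = 0.00827), ponzr6 (0.54 ± 0.11, adjusted p = 0.00265) and ponzr4 (0.27 ± 0.07, adjusted p = 0.0135). On the FPKM scale the knockout mean was 1.59 times the wild-type mean for ponzr3, 1.56 times for ponzr6 and 1.21 times for ponzr4. For each of them, all 3 knockout libraries were above all 3 wild-type libraries. How many of all genes tested separate in this way was not counted, so nothing is read from it. The ponzr4 call was lost without wild-type hypoxia replicate 3 (adjusted p = 0.051) or knockout hypoxia replicate 1 (0.0635).

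The other members did not pass the test in hypoxia. The difference was 0.24 ± 0.11 for ponzr5 (95% interval -0.01 to 0.48, limma adjusted p = 0.129), which was called without wild-type hypoxia replicate 1 (adjusted p = 0.0115). It was -0.04 ± 0.13 for ponzr1 (interval -0.31 to 0.24) and 0.01 ± 0.14 for ponzr2 (interval -0.29 to 0.31). The intervals of these members include differences in either direction. The median over the 6 members was 0.25, beside -0.0020 over all genes tested.

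The interaction, the knockout hypoxia difference minus the wild-type one, was called for 2 of the 6 members, both higher, against 9.25% of all genes tested called in either direction, 4.74% higher and 4.5% lower. It is built from the 2 hypoxia differences, and the size of these chose the members, so it is not fully separate from that choice. It was 0.56 ± 0.10 for ponzr4 (limma adjusted p = 0.0149) and 0.64 ± 0.15 for ponzr6 (adjusted p = 0.0267). For ponzr4 the genotype difference changed sign, from below wild type in normoxia to above it in hypoxia. Both of these genotype calls were lost under some alternatives, given above. For ponzr6 the genotype difference passed the test in hypoxia and not in normoxia (-0.10 ± 0.11, limma adjusted p = 0.55). The ponzr4 interaction call was lost with voom on recovered reads (adjusted p = 0.0758). The ponzr6 interaction call was lost under 8 alternatives, with adjusted p up to 0.0755. These were no filter (0.051), TPM scaling (0.0755), voom (0.0521) and leaving out wild-type normoxia replicate 1 (0.0663), knockout normoxia replicate 2 (0.0582) or 3 (0.0641), wild-type hypoxia replicate 2 (0.0579) or knockout hypoxia replicate 2 (0.0569).

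The interaction of ponzr3 was of similar size but did not pass, at 0.58 ± 0.23 (95% interval 0.09 to 1.08, limma adjusted p = 0.123). It passed without wild-type normoxia replicate 1 (adjusted p = 0.0452), the library with the lowest ponzr3 value. The value was 0.29 ± 0.16 for ponzr5 (adjusted p = 0.261, or 0.0458 without wild-type hypoxia replicate 1), 0.06 ± 0.18 for ponzr1 (adjusted p = 0.866) and -0.13 ± 0.19 for ponzr2 (adjusted p = 0.718). The median over the 6 members was 0.42, beside 0.028 over all genes tested.

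**Figure D2:**
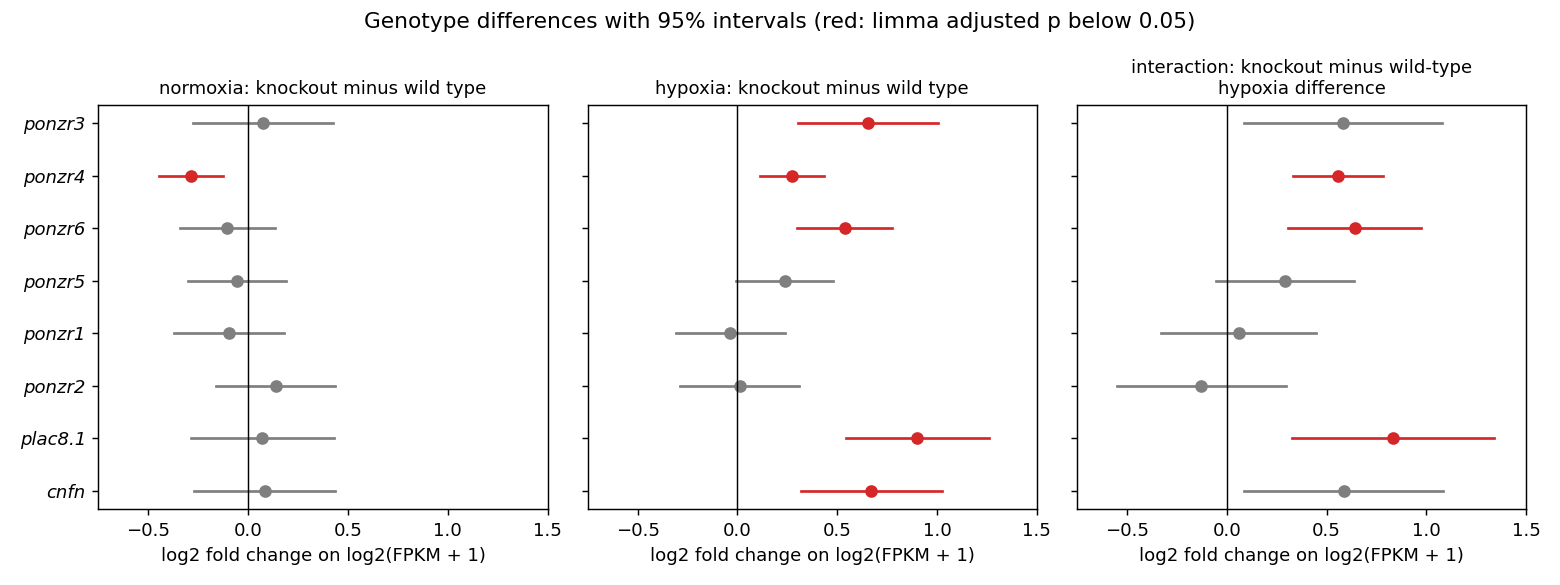
Log2 differences on the log2(FPKM + 1) scale (x axis) for 6 ponzr genes and the other PLAC8-domain genes plac8.1 and cnfn (y axis), as points with 95% intervals from limma, for knockout minus wild type in normoxia, in hypoxia and for the interaction, with calls in red. In hypoxia ponzr3, ponzr4, ponzr6, plac8.1 and cnfn lie to the right of 0 with their whole intervals, and in normoxia ponzr4 lies to the left.

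The chromosome 7 genes other than ponzr1 form a run on the plus strand in the order ponzr5, ponzr3, ponzr4 and ponzr6. The gap was 11.5 kb between ponzr5 and ponzr3, 3.35 kb between ponzr3 and ponzr4 and 83.4 kb between ponzr4 and ponzr6, and ponzr1 lies 2288 kb away. Not every gene of the run was higher in hypoxia. The ponzr5 libraries overlapped normoxia in both genotypes, and FXR2, an RNA-binding protein gene between ponzr4 and ponzr6, differed by 0.04 in wild type and -0.08 in the knockout. The following neighbours are no members, and the window from cldn7a to tifa was chosen after the table was opened. In it, cldn7a, si:dkey-112a7.4 and tifa were chosen after their values were seen. Their adjusted p are given as a description only.

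Several neighbours of the run were higher in hypoxia, by less than ponzr3 and ponzr4. The gene ugt5g1, a UDP glucuronosyltransferase just after ponzr4, measured 3.31 ± 0.344 and 3.90 ± 0.282 FPKM in wild-type normoxia and hypoxia and 2.94 ± 0.160 and 5.41 ± 0.652 FPKM in the knockout. Its hypoxia difference was 0.19 ± 0.09 in wild type (limma adjusted p = 0.126), against 0.70 ± 0.09 in knockout larvae (adjusted p = 5.35e-05), with an interaction of 0.51 ± 0.13 (adjusted p = 0.0292). The claudin gene cldn7a, which encodes a tight junction protein, rose by 0.55 ± 0.07 and 0.87 ± 0.07 (adjusted p = 4.6e-05 and 7.49e-07). The uncharacterised gene si:dkey-112a7.5, whose start is the nearest on the other side of ponzr5, measured 0.398 ± 0.204 and 2.47 ± 0.383 FPKM in wild-type normoxia and hypoxia and 0.800 ± 0.487 and 3.29 ± 0.0999 FPKM in the knockout. It reached the level required for a test through the hypoxia libraries, so its hypoxia difference is given as these values with no test. At the far end tifa, an adaptor of TRAF signalling, rose by 0.60 ± 0.08 and 0.90 ± 0.08 (adjusted p = 0.000151 and 4.05e-06). Of all genes tested, 36% passed this test in wild type, 16.8% higher and 19.2% lower, and 44% in the knockout, 21.8% higher and 22.2% lower. In hypoxia, neighbours were called higher in the knockout too, beside 17% of all genes tested. They were cldn7a (0.66 ± 0.07, limma adjusted p = 2.09e-05), si:dkey-112a7.4 (0.43 ± 0.06, 0.000346), ugt5g1 (0.38 ± 0.09, 0.00621) and tifa (0.28 ± 0.08, 0.0213). FXR2 was lower (-0.46 ± 0.06, adjusted p = 8.11e-05), and si:dkey-112a7.5 and ENSDARG00000116684 did not pass. In normoxia cldn7a was already higher in the knockout (0.33 ± 0.07, limma adjusted p = 0.00525) and FXR2 already lower (-0.35 ± 0.06, adjusted p = 0.00145). The other tested neighbours of this window did not pass in normoxia. The si:dkey-112a7.4 interaction was 0.55 ± 0.09 (adjusted p = 0.00932).

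The ponzr10 and ponzr2 pair on chromosome 10, with 28.3 kb between them, has relatives of the same neighbours. Between the pair lies ENSDARG00000109946 (22097328 to 22106331, minus strand), an unnamed gene with a PLAC8 domain. It is outside the family by the rule used here and was listed at 0 in all libraries. The gene ugt5g2 beside ponzr10 was listed at 0 in all libraries. The claudin gene cldn7b, on the other side of ponzr2, was chosen after its values were seen, and its adjusted p are a description only. It differed by -0.05 ± 0.07 with hypoxia in wild type (limma adjusted p = 0.659) but rose by 0.35 ± 0.07 in knockout larvae (adjusted p = 0.00175). ENSDARG00000116684, a minus-strand gene of 111 bases counted, spans ponzr4 and held 0 to 6 reads.

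**Figure D3:**
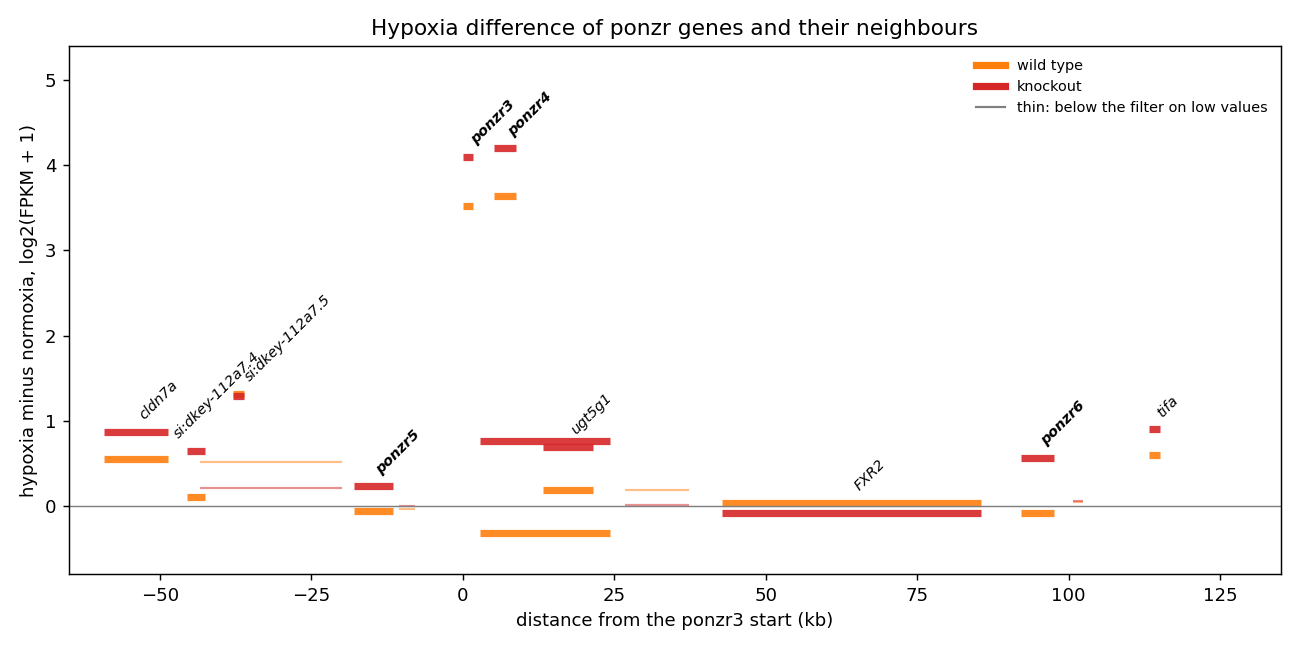
Hypoxia minus normoxia on the log2(FPKM + 1) scale (y axis) for ponzr5, ponzr3, ponzr4, ponzr6 and their neighbours on chromosome 7, drawn over the extent of each gene as distance from the ponzr3 start in kb (x axis), with orange bars for wild type and red bars for the knockout. The unlabelled wide pair of bars across ponzr4 and ugt5g1 is ENSDARG00000116684, and thin lines are genes below the filter on low values. The ponzr3 and ponzr4 bars lie at 3.52 to 4.20, above every other bar.

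Outside the family the table lists 6 further genes with a PLAC8 domain or name, of which 2 were tested, and neither rose in hypoxia. The gene plac8.1 (named PLAC8 in the table, placenta associated 8, tandem duplicate 1) measured 29.0, 32.1 and 25.8 FPKM in wild-type normoxia and 14.4, 9.95 and 16.5 FPKM in wild-type hypoxia. Knockout libraries held 25.4, 36.4 and 30.1 FPKM under normoxia and 24.6, 29.9 and 23.4 FPKM under hypoxia. The wild-type hypoxia libraries were the lowest of the 12 and overlapped no other group. In hypoxia plac8.1 was higher in the knockout than in wild type by 0.90 ± 0.17 (limma adjusted p = 0.00136), beside 17% of all genes tested called higher. That call was kept under all 20 alternatives. The fall in wild type was -1.06 ± 0.17 (limma adjusted p = 0.000327), whereas the knockout difference was -0.23 ± 0.17 (adjusted p = 0.294), with an interaction of 0.83 ± 0.23 (adjusted p = 0.0445). That interaction was lost under 11 of 19 alternatives, with adjusted p up to 0.0941, among them the replicate block (0.0609), no filter (0.086) and TPM scaling (0.0923). It was also lost without any of the wild-type normoxia libraries (0.0636 to 0.0916), knockout normoxia replicate 1 (0.0941) or 3 (0.089), wild-type hypoxia replicate 2 (0.0791) or knockout hypoxia replicate 1 (0.0825) or 2 (0.0911).

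The gene cnfn (cornifelin, in mammals a protein of the cornified layer of skin) showed a similar order. It measured 13.1, 12.0 and 8.46 FPKM in wild-type normoxia and 4.53, 5.39 and 7.53 FPKM in wild-type hypoxia. Knockout libraries held 10.7, 12.3 and 12.2 FPKM under normoxia and 8.47, 10.8 and 9.91 FPKM under hypoxia. Wild-type hypoxia was again the lowest group and did not overlap knockout hypoxia, with a genotype difference there of 0.67 ± 0.16 (limma adjusted p = 0.0076). Its interaction was 0.59 ± 0.23 (adjusted p = 0.123, or 0.0367 without wild-type hypoxia replicate 3). PLAC8L1 (0.285 to 1.54 FPKM) and plac8.2 (0 to 0.232 FPKM) lay below the filter, and ENSDARG00000114387 and ENSDARG00000109946 were listed at 0 in all libraries. On 5 to 27 reads, PLAC8L1 held 0.729 ± 0.180 and 1.18 ± 0.311 FPKM in wild-type normoxia and hypoxia. In the knockout it held 0.515 ± 0.0555 and 0.383 ± 0.164 FPKM, so its order of groups differed from that of plac8.1 and cnfn.

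**Figure D4:**
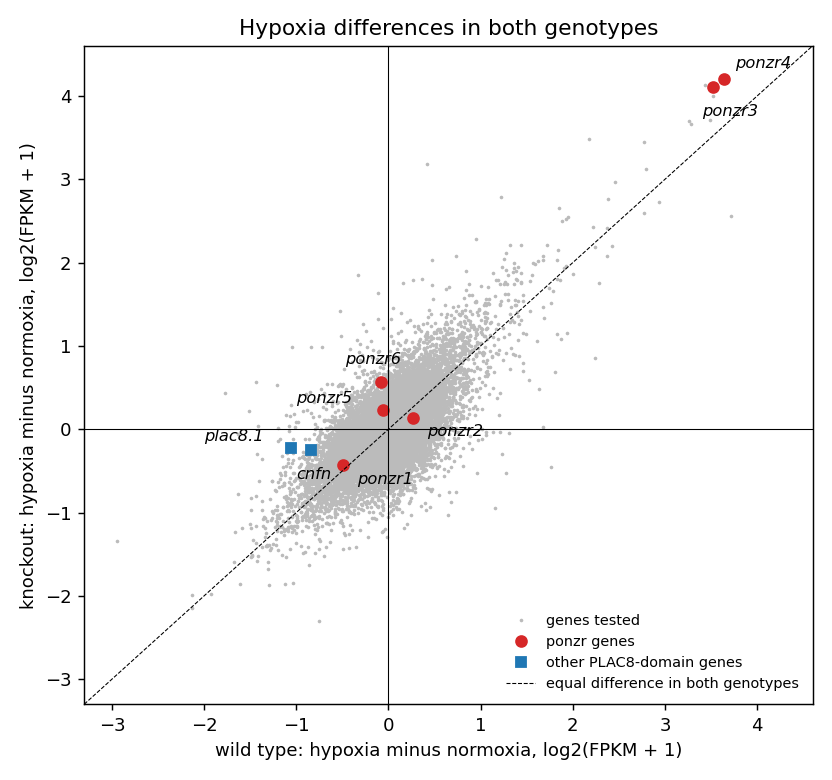
Hypoxia minus normoxia on the log2(FPKM + 1) scale in wild type (x axis) and in the knockout (y axis) for 21480 genes tested (grey), with 6 ponzr genes in red, plac8.1 and cnfn in blue, and a dashed line where the genotypes are equal. The ponzr3 and ponzr4 points lie in the upper right corner above the line, ponzr6 lies above it near 0 in wild type, and plac8.1 and cnfn lie left of 0.

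Across the 12 libraries ponzr3 and ponzr4 followed each other with a Pearson r of 0.99 on the log2(FPKM + 1) scale. The libraries fall into the same 4 groups for every gene, so such values describe the group pattern and are given without a p. Among 14914 candidate genes outside the family, those most like ponzr3 were gvin1l2, a very large interferon-inducible GTPase (0.998), VIM, the intermediate filament vimentin (0.996), ankrd37 (0.995), egln3 (0.994) and the glycolytic enzyme eno1a (0.994). The most like ponzr4 were ankrd37 (0.997), EEF2K, the kinase of elongation factor 2 (0.997), the amino acid transporter slc38a5b (0.996), TXNIP, an arrestin-like inhibitor of thioredoxin (0.996), and OGA, which removes O-GlcNAc from proteins (0.996). The members of the family did not share a common pattern, as ponzr1 ran against ponzr3 (-0.83) and ponzr6 had r of 0.55 with ponzr3.

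Genes induced by the hypoxia-inducible transcription factors, the HIF targets, were mostly higher in hypoxia too. Of 30 listed HIF targets tested, 25 rose and 1 fell in wild type with hypoxia (median 0.91, beside 0.0076 over all genes) and 28 rose in the knockout (median 1.12, beside -0.00030). Of all genes tested, 36% were called in wild type, 16.8% higher and 19.2% lower, and 44% in the knockout, 21.8% higher and 22.2% lower. In hypoxia 18 were higher and 2 lower in the knockout than in wild type (median 0.25), beside 17% and 16.2% of all genes tested. The largest of these were igfbp1b (1.40 ± 0.11, limma adjusted p = 4.11e-06) and ndrg1b (1.04 ± 0.09, adjusted p = 6.21e-06). In normoxia 7 HIF targets were already higher in the knockout, beside 7.63% of all genes tested. Among them igfbp1b differed by 0.75 ± 0.11 (adjusted p = 0.000858). The interaction was called for 6 genes higher and 1 lower (median 0.24), beside 4.74% and 4.5% of all genes tested (median 0.028). The 31 matched genes summed in wild type to 721 to 742 FPKM under normoxia and 1385 to 1495 FPKM under hypoxia, and in the knockout to 764 to 773 and 1763 to 1948 FPKM.

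In RNA of whole larvae, a change in the number of cells of a type and a change of RNA in each cell cannot be told apart. Marker lists of tissues that could hold ponzr transcripts are given with their counts, and their part in the ponzr values was not tested. The counts stand beside 36% of all genes tested called with hypoxia in wild type and 44% with hypoxia in the knockout. Between genotypes they stand beside 16.7% in normoxia and 33.1% in hypoxia. A list near these shares shows nothing particular to its tissue. No list was tested as a set, and the shares were not matched for expression level. Nothing particular to a tissue is therefore read from lists away from these shares either. Genotype counts in normoxia are given too, since a difference present there is not particular to hypoxia. No marker of these lists was at 0 in all libraries. In the pronephros and podocyte list, the site known for ponzr1, 5 of 23 genes rose and 4 fell with hypoxia in wild type, a share near that of all genes, and the largest differences were in pax8 (0.60 ± 0.13, limma adjusted p = 0.00268) and tfcp2l1 (-0.45 ± 0.13, adjusted p = 0.0135). In the knockout 5 rose and 5 fell, again near the 44% of all genes. Between genotypes 4 were higher in the knockout in normoxia, and 5 were higher and 2 lower in hypoxia. Its summed level was 153 to 157, 164 to 177, 164 to 172 and 181 to 185 FPKM in wild-type normoxia, knockout normoxia, wild-type hypoxia and knockout hypoxia, the order used for all sums that follow.

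Of 16 pharyngeal arch genes, 0 passed the limma test with hypoxia in wild type (1 at an unadjusted p under 0.05), where the largest differences, in sox9a and gcm2, were 0.18 ± 0.08 and -0.17 ± 0.12 (adjusted p = 0.0946 and 0.276), and 5 rose in the knockout, among them the signal edn1 (0.57 ± 0.11, adjusted p = 0.00154). Between genotypes 2 were lower in the knockout in normoxia, and 1 was higher and 2 lower in hypoxia. Their sums were 153 to 158, 133 to 141, 153 to 176 and 147 to 164 FPKM.

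Skin markers were split into ionocyte, epidermis and mucous cell genes. Of 19 ionocyte genes, 5 rose and 3 fell with hypoxia in wild type, near the 36% of all genes, and 10 rose and 5 fell in the knockout, beside 44%. Of the same genes 11 were higher and 1 lower in the knockout in hypoxia, where rhcgb differed by 1.19 ± 0.11 (limma adjusted p = 8.68e-06) and rhcga by 0.70 ± 0.15 (adjusted p = 0.00407). In normoxia 4 ionocyte genes were already higher and 1 lower in the knockout, with rhcgb at 0.70 ± 0.11 (limma adjusted p = 0.000994). The ionocyte sums were 514 to 524, 525 to 545, 523 to 587 and 661 to 690 FPKM. Of 16 epidermis genes, 9 rose and 5 fell in wild type and 10 rose and 1 fell in the knockout, and 5 were higher and 3 lower in the knockout in hypoxia. In normoxia 2 epidermis genes were higher and 3 lower in the knockout. The epidermis sums were 10833 to 11520, 8683 to 9654, 12783 to 14909 and 11772 to 13059 FPKM. Of 3 mucous cell genes, 2 fell in wild type and 1 in the knockout, and 1, agr2, was higher in the knockout in hypoxia (0.60 ± 0.06, adjusted p = 2.93e-05). In normoxia 1 mucous cell gene was lower in the knockout. The mucous cell sums were 44.8 to 47.9, 46.4 to 50.3, 23.0 to 29.0 and 34.6 to 40.6 FPKM.

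Of 8 intestine genes, 2 rose and 4 fell with hypoxia in wild type and 3 rose and 3 fell in the knockout. In hypoxia 6 were higher in the knockout, led by the peptide transporter slc15a1b (1.94 ± 0.20, limma adjusted p = 2.3e-05). In normoxia 5 were already higher and 2 lower, with slc15a1b at 1.33 ± 0.20 (adjusted p = 0.000858). The intestine sums were 2711 to 3273, 2542 to 2671, 3642 to 4581 and 3641 to 4102 FPKM. Of 10 liver genes, 3 rose and 2 fell with hypoxia in wild type and 4 rose and 2 fell in the knockout. In hypoxia 7 were higher and 1 lower in the knockout, led by the thyroid hormone carrier ttr (1.33 ± 0.19, limma adjusted p = 0.000259). In normoxia 2 were already higher and 1 lower, with ttr at 1.68 ± 0.19 (adjusted p = 0.000108). The liver sums were 4034 to 5056, 3895 to 4104, 3760 to 4675 and 4004 to 4245 FPKM.

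Blood markers were split into myeloid and erythrocyte genes. Of 10 myeloid genes, in mammals a site of Plac8, 2 rose and 3 fell with hypoxia in wild type and 3 rose in the knockout. Between genotypes in hypoxia 0 passed the limma test (1 at an unadjusted p under 0.05), and the largest difference, in coro1a, was not past it (0.22 ± 0.10, limma adjusted p = 0.117). In normoxia 1 myeloid gene was lower in the knockout. The myeloid sums were 50.2 to 53.7, 48.4 to 50.0, 52.3 to 53.6 and 54.5 to 57.9 FPKM. Of 10 erythrocyte genes, 7 rose and 1 fell with hypoxia in wild type and 6 rose in the knockout. In hypoxia 6 were lower in the knockout, led by hbbe2 (-1.21 ± 0.05, limma adjusted p = 2.01e-08). In normoxia 5 were already lower and 1 higher, with hbbe2 at -0.85 ± 0.05 (adjusted p = 6.86e-07). The erythrocyte sums were 1630 to 1770, 1070 to 1120, 2398 to 3481 and 1683 to 1945 FPKM.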

How the data were processed

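The deposited table gives FPKM per gene for 12 libraries, which the authors made with fastp, HISAT2 2.2.1 and featureCounts 2.0.6 on GRCz11, per the submitters' processing notes. How the FPKM were scaled and the strand setting are not given in the sources used here. FPKM times gene length came in whole steps for 100% of values (within 0.05 of a step), which gave the reads per library. The divisor implied by the steps was not the sum of these reads. It was 1.01 to 1.04 times that sum in wild-type normoxia and 1.06 to 1.07 times in knockout normoxia. In hypoxia it was 0.950 to 0.997 times in wild type and 0.945 to 0.980 times in the knockout. Its part in the hypoxia ratios and the interaction was not tested beyond the scaling alternatives below. Every per-sample column had a sample.

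The 21480 of 35004 genes that reached 1 FPKM in 3 or more libraries were fitted as log2(FPKM + 1) with limma 3.58.1 (trend) in R 4.3.3, with 4 group means, Benjamini-Hochberg adjustment over all genes and a threshold of 0.05. The same fit was also run on simulated data, and its outcome is not given here, so nothing is read from it. Hypoxia differences of the members were not tested, since they chose the members. The members, gene lists and tests were chosen with earlier results of these data known. Lists were described by counts and medians, and 4 of 153 listed symbols had no match to a single row. The largest 2 differences per list and comparison were open to naming, as were the 5 genes most like ponzr3 and ponzr4 by Pearson r, with at least 2 FPKM in a group, and the nearest neighbours. Other genes of the chromosome 7 window, and cldn7b, were chosen after their values were seen.

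Alternatives were another pseudocount, other filters, TPM scaling, median ratio scaling, the compared groups alone, voom on recovered reads, a block for the replicate number, and each library left out. Figures used Python 3.11.15 and matplotlib 3.10.9.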

Additional observations from a re-analysis of the deposited data

Results flagged for a closer look

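The hypoxia difference of 3 genes differed between genotypes by the interaction test of limma, all higher. The genes tested were 6 ponzr members and 2 other PLAC8-domain genes. Of all genes tested, 9.25% were called in either direction and 4.74% higher. For the ponzr members this test is not fully separate from their choice by the hypoxia rise. The knockout difference exceeded the wild-type difference by 0.56 for ponzr4 (adjusted p = 0.0149) and by 0.64 for ponzr6 (adjusted p = 0.0267). For plac8.1, which fell in wild type, the interaction was 0.83 (adjusted p = 0.0445). Each of these calls was lost under at least 1 alternative, given with the results above.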

How the results depend on the processing

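The count of members called for knockout against wild type in normoxia, 1, became 0 with voom on recovered reads and with the compared groups alone, and ran from 0 to 1 when each library was left out. In hypoxia the count of 3 ran from 2 to 4 over all alternatives. The interaction count of 2 became 1 with no filter on low values, 1 with TPM scaling and 0 with voom, and ran from 1 to 3 with each library left out. The counts of members above normoxia in all hypoxia libraries ran from 2 to 3 in wild type and from 3 to 5 in the knockout. Same-numbered libraries showed no strong shared shift, as the correlation of residuals ran from -0.0867 to 0.119 over 18 such pairs and 1 was above 0.1. These values cannot show whether the replicate numbers mark a pairing by design. With the replicate block the counts were 1 in normoxia, 3 in hypoxia and 2 for the interaction, the same members each time, and the plac8.1 interaction had limma adjusted p = 0.0609. Sign changes occurred only in differences that were not called. TPM scaling gave 0.0071 for ponzr5 in normoxia, -0.036 for ponzr2 in hypoxia and -0.055 for the ponzr1 interaction, and it moved the median hypoxia difference of all genes in the knockout to -0.13. Leaving out each library, the knockout difference in normoxia ran from -0.21 to 0.0080 for ponzr1, -0.14 to 0.27 for ponzr3, -0.057 to 0.19 for plac8.1 and -0.087 to 0.20 for cnfn. In hypoxia it ran from -0.17 to 0.17 for ponzr2 and from -0.12 to 0.075 for ponzr1. The interaction ran from -0.30 to 0.037 for ponzr2 and from -0.043 to 0.17 for ponzr1. The cause of these changes was not tested. Depth limits ponzr10, which held 2 to 12 reads in a library. A left-out library leaves 2 in its group, and the spread is then pooled over all groups.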
